A study of Mus musculus with 10 samples.

Results

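Genes that move calcium in the cardiac muscle cell were followed in the hearts of Rit1 M90I/+ mice given the MEK inhibitor trametinib (MEKi) or vehicle. The genes are Cacna1c, Ryr2, Jph2, Trdn, Casq2, Hrc, Atp2a2, Pln, Slc8a1 and Camk2d. They were taken by gene name and make up 10 of the 54532 genes in the deposited table. Poly(A) RNA from 10 hearts was sequenced (5 vehicle control, 5 MEKi), and the values are FPKM (fragments per kilobase of gene model scaled to the fragments of the library). All 10 mice carried the M90I variant on 1 allele of Rit1, the gene of a RAS-related small GTPase. It came from a conditional allele recombined by a cytomegalovirus-Cre deleter, so it was not limited to heart muscle. Mice received 1 mg/kg trametinib daily over 20 weeks, beginning when they were 4 weeks old, and hearts were collected 2 hours after the final dose. Vehicle mice received the diluent alone over the same period. There are no hearts without the variant here, so the values describe MEKi against vehicle within the mutant and not mutant against wild type.

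With each heartbeat, calcium enters the muscle cell through the L-type channel and opens ryanodine receptors on the sarcoplasmic reticulum, which release far more calcium to the contractile filaments. The heart relaxes when a pump returns calcium to the reticulum and an exchanger carries the remainder out of the cell. Variants in several of these genes are known in inherited arrhythmia and cardiomyopathy.

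No difference between the MEKi and vehicle groups was called for any of the 10 genes. All passed the expression filter (mean over the hearts not below 0.5 FPKM), 0 had an adjusted p under 0.05 (limma, Benjamini-Hochberg adjustment over 12602 genes), and 0 had an unadjusted p under 0.05. Over all genes tested, 0.0794% passed the adjusted threshold and 7.62% the unadjusted one. Those past the adjusted threshold included the Y-linked Ddx3y, Eif2s3y, Uty and Gm29650 and the X-linked Xist and Kdm6a. The groups overlapped for every one of the 10 genes, where 1.64% of all genes had groups that did not. The 95% intervals of 9 genes lay within 0.783-fold and 1.41-fold of the vehicle level. For the exchanger gene Slc8a1 the interval ran from 0.684-fold to 2.49-fold.

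The proteins at the centre of relaxation are the SERCA pump (Atp2a2) and its small inhibitor phospholamban (Pln). The Pln coding sequence is shown with that of Sln, the gene of sarcolipin, another small SERCA inhibitor, because these transcripts behaved very differently between hearts: Pln was among the least variable of the 10 genes, and Sln ranged from 0 to 112 FPKM. Both were read from GENCODE M21 transcripts on GRCm38, on the plus strand, at chr10:53343864-53344022 and chr9:53853473-53853568. Each lies in a single exon. Capitals mark the start and stop codons.
Pln coding sequence: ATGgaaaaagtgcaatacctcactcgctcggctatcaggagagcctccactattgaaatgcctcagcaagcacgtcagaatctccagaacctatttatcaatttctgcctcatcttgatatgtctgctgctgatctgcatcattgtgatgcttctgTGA
Sln coding sequence: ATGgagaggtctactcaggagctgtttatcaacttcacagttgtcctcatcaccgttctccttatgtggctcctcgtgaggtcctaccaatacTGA
Pln codes for 52 residues and Sln for 31, against 4966 for Ryr2, the longest coding sequence of the 10 genes.

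RefSeq promoters (GRCm38.p6, 250 bases before to 50 after the start) matched 8 of the 10 genes, all but Atp2a2 and Trdn. The promoters of Jph2 and Ryr2 are shown because these genes varied together from heart to heart. Those of Pln and Hrc are shown because they were less closely correlated with Jph2 and Ryr2 over all 10 hearts. That of Slc8a1 is shown because it lies outside the gene model the deposited values rest on. The windows are Jph2 at chr2:163397944-163398243 (minus strand), Ryr2 at chr13:12106896-12107195 (minus strand), Pln at chr10:53337436-53337735 (plus strand), Hrc at chr7:45335019-45335318 (plus strand) and Slc8a1 at chr17:81738338-81738637 (minus strand). Capitals mark matches, on either strand, to the binding motifs of heart and general factors searched for, whose letters are given after the sequences.
Jph2 promoter: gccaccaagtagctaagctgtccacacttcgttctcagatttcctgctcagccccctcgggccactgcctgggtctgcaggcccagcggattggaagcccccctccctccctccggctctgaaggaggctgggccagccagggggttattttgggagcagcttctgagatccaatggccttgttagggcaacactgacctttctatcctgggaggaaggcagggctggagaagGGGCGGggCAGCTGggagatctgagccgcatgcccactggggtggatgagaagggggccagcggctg
Ryr2 promoter: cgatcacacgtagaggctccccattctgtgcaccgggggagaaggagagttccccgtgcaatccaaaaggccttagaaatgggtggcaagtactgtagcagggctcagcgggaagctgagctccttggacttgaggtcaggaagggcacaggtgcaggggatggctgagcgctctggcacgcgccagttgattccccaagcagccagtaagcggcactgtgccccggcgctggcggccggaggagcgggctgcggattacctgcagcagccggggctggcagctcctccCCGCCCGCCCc
Pln promoter: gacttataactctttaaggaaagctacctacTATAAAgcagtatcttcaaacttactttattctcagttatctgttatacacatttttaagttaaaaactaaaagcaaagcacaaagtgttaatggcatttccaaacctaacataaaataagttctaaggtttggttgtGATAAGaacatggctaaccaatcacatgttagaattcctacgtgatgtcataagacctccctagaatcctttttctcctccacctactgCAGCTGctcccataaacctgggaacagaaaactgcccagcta
Hrc promoter: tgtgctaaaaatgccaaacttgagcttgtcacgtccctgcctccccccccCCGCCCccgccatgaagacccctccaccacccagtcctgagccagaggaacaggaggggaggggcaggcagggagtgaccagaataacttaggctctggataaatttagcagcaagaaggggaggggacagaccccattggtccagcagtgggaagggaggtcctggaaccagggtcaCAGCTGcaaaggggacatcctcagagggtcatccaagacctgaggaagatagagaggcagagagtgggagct
Slc8a1 promoter: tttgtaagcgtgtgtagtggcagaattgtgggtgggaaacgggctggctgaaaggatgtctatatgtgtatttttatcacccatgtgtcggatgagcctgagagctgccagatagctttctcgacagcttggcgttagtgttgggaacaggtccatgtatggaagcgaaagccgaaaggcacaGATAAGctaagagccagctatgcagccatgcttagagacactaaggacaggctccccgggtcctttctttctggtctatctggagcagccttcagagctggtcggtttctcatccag
GC content was 63.0% for Jph2, 65.3% for Ryr2, 36% for Pln, 58.7% for Hrc and 50.7% for Slc8a1. The median over all promoters was 52.7%. The motif of GATA factors, GATAAG, occurs in 7.44% of 32851 promoters and was found for Pln and Slc8a1. An E-box, CAGCTG, is in 16.3% of them and was found for Cacna1c, Hrc, Jph2 and Pln. The letters of the TATA box, TATAAA, are in 13.6% and were found for Pln, near the end of the window farthest before the start. Matches of every motif were counted at any position in the window, and those of the GC box in Ryr2 lay after the start. The match in Pln is therefore a run of letters, and whether it acts as a TATA box was not tested. The GC box, GGGCGG, whose neighbouring matches can overlap, is in 35.7% and was found for Cacna1c, Camk2d, Hrc, Jph2 and Ryr2. The MEF2 consensus, in 3.19%, was found for Casq2. Neither the MCAT motif, CATTCC (in 14.7% of promoters), nor the CArG box (in 1.63%) was found for any of the 8 genes. Cacna1c and Jph2 each had multiple windows, and a match in any of them was counted for the gene. The percentages count windows and not genes, so they are no direct yardstick for the 8 genes. These matches describe the letters of the windows.

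Several properties of the hearts bear on all values. From 13647167 to 18474002 fragments per heart were assigned to genes, and mitochondrial genes took 24.0 to 35.0% of them, most in vehicle heart 3. Cardiomyocyte markers summed to between 18676 and 26194 FPKM, and skeletal muscle markers to at most 3.24 FPKM with Myh2, Myh4 and Myog at 0 in all hearts. Haemoglobin transcripts and the erythroid gene Alas2 summed to 23639 and 25874 FPKM in vehicle hearts 4 and 5 and to at most 7386 FPKM elsewhere. Atrial markers were at 2196, 842 and 1136 FPKM in vehicle hearts 4 and 5 and MEKi heart 2, against 143 to 473 FPKM in the other hearts. No marker gene of any of the 11 lists passed the threshold. Xist had at most 2 fragments in vehicle hearts and 1456 to 2199 in MEKi hearts. The Y-linked Ddx3y, Eif2s3y and Uty had 814 to 901, 493 to 668 and 196 to 362 fragments in vehicle hearts. They had 0 in every MEKi heart (a count of 0 allows up to 3 fragments, counting error only). By these transcripts the vehicle hearts read as male and the MEKi hearts as female. The paper states that littermates of both sexes entered the study. Treatment and sex-linked transcripts thus divided the hearts alike, so MEKi and sex cannot be told apart in any group comparison here. Rit1 itself was at 14.6 ± 1.53 and 19.0 ± 2.496 FPKM (SD, n = 5, limma adjusted p = 0.445). Values come from heart tissue, in which fewer cells of a type and less RNA per cell cannot be told apart. The sample titles name the heart and no chamber.

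The 10 genes covered a wide range of levels (the plot of FPKM by heart). Atp2a2 was highest at a mean of 1365 FPKM over the 10 hearts, and Pln followed at 651 FPKM. Casq2 at 273 FPKM and Hrc at 268 FPKM could not be ordered, since Casq2 was the higher in 6 of 10 hearts. Jph2 at 109 FPKM, Trdn at 36.4 FPKM and Ryr2 at 20.8 FPKM came next without overlap between neighbours. Ryr2 exceeded Slc8a1 (9.21 FPKM) in all 10 hearts although their ranges overlapped, Slc8a1 exceeded Cacna1c (5.27 FPKM) in 8, and Cacna1c exceeded Camk2d (4.21 FPKM) in 9. FPKM divides by the length of the gene model, and that length was 22493 bases for Camk2d and 21191 for Cacna1c, with coding sequences of 1602 and 6669 bases. For Slc8a1 it was 2934 bases, where GENCODE M21 has 18807 bases of exon, 6.41 times as many. The place of these genes in the order therefore depends on the model. Between hearts the length of 1 gene cancels, but which fragments were counted still follows the model, and for Slc8a1 a model with all of those exons was not analysed here.

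**Figure D1:**
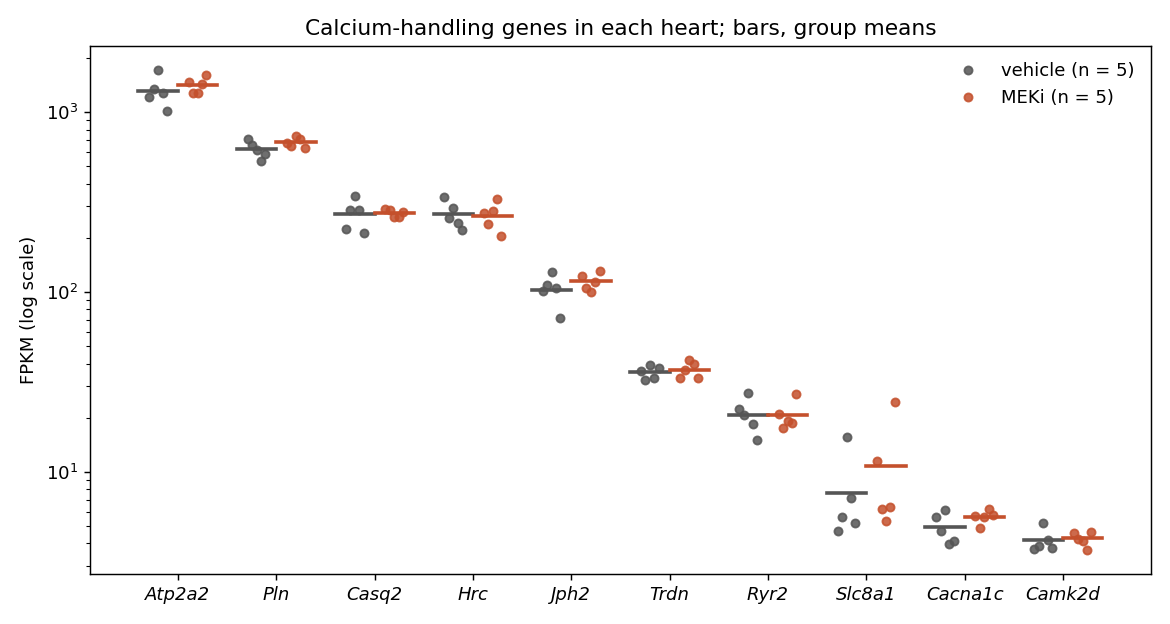
FPKM (log scale) of the 10 genes in each heart, vehicle in grey and MEKi in orange, with points in replicate order and bars for the group means (n = 5 each). Points of the groups overlap for every gene, and Slc8a1 has the widest spread, from 4.68 to 24.4 FPKM.

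Entry of calcium was represented by Cacna1c, which encodes the pore of the L-type channel (ENSMUSG00000051331, chromosome 6, 118587240 to 119196418, minus strand, mm10 as for all coordinates below). It was at 5.58, 4.71, 6.17, 3.98 and 4.14 FPKM in vehicle hearts 1 to 5 and at 5.71, 4.89, 5.63, 6.18 and 5.73 FPKM in MEKi hearts 1 to 5. Each MEKi heart lay above the vehicle median of 4.71 FPKM, and the lowest values were those of vehicle hearts 4 and 5, the hearts with most haemoglobin. Group levels were 4.92 ± 0.941 and 5.63 ± 0.465 FPKM (SD, n = 5), a log2 fold change of 0.21 (SE 0.13). It had the smallest p of the 10 genes in limma, 0.135, with an adjusted p of 0.744. Leaving out vehicle hearts 4 and 5, a step chosen after seeing the data, reduced the log2 fold change to 0.041.

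Release was represented by Ryr2, the cardiac ryanodine receptor, and Jph2, junctophilin-2, which holds the reticulum close to the surface membrane. Ryr2 (ENSMUSG00000021313, chromosome 13, 11553102 to 12106945, minus strand) was at 22.2, 20.6, 27.6, 18.5 and 15.03 FPKM in vehicle hearts and 21.01, 17.5, 19.1, 18.7 and 27.3 FPKM in MEKi hearts. Its group means were nearly the same, 20.8 ± 4.67 and 20.7 ± 3.86 FPKM (SD, n = 5), with vehicle heart 3 and MEKi heart 5 standing at the top of their groups. The log2 fold change was 0.0059 (SE 0.16, adjusted p = 0.994, limma). Jph2 (ENSMUSG00000017817, chromosome 2, 163336242 to 163397993, minus strand) was at 101, 109, 129, 105 and 71.4 FPKM in vehicle hearts and 123, 105, 101, 114 and 130.3 FPKM in MEKi hearts. Vehicle heart 5 alone was below 100.5 FPKM, the lowest MEKi value. Its log2 fold change was 0.17 (SE 0.14, adjusted p = 0.820, limma), and without vehicle hearts 4 and 5 it was 0.019.

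The calcium store inside the reticulum was represented by calsequestrin-2 (Casq2), which binds calcium, triadin (Trdn), which anchors it to the ryanodine receptor, and the histidine-rich calcium-binding protein (Hrc). Casq2 (ENSMUSG00000027861, chromosome 3, 102086415 to 102146514, plus strand) was at 225, 287, 341, 284 and 213 FPKM in vehicle hearts and 290.2, 284, 263, 261 and 278 FPKM in MEKi hearts. The MEKi values all fell inside the vehicle range, with a coefficient of variation of 4.64% against 19.2%. That of Casq2 was a log2 fold change of 0.049 (SE 0.13, adjusted p = 0.955, limma). Trdn (ENSMUSG00000019787, chromosome 10, 33080554 to 33476709, plus strand) stayed between 32.2 and 41.9 FPKM in all hearts. Vehicle hearts averaged 35.8 ± 2.98 FPKM and MEKi hearts 37.0 ± 3.77 FPKM (SD, n = 5, log2 fold change 0.043, SE 0.095, limma adjusted p = 0.945). Trdn, Pln and Cacna1c overlap transcripts on the other strand, at 1.71 FPKM (D830005E20Rik), 1.64 FPKM (Cep85l) and 0.505 FPKM (Dcp1b). No source used here says whether strand was counted. Trdn also overlaps a pseudogene on its own strand, at 2.59 FPKM (Gm47845). Hrc (ENSMUSG00000038239, chromosome 7, 45335290 to 45338974, plus strand) was at 338, 259, 292, 243 and 221 FPKM in vehicle hearts and 275, 239.8, 283, 329.6 and 205 FPKM in MEKi hearts. MEKi heart 5, the top or second heart for Ryr2, Jph2 and Slc8a1, was the lowest for Hrc. For Hrc the log2 fold change was −0.024 (SE 0.15, adjusted p = 0.979, limma), and it was above 0 (0.054) on a TPM scale, on which every heart has the same total.

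Return of calcium to the store was represented by Atp2a2, which encodes the cardiac SERCA pump, and Pln, whose product slows the pump until it is phosphorylated. Atp2a2 (ENSMUSG00000029467, chromosome 5, 122453513 to 122502225, minus strand) was at 1219, 1343, 1720, 1272 and 1015 FPKM in vehicle hearts and 1479, 1278, 1282, 1431 and 1612 FPKM in MEKi hearts. Vehicle hearts held both the highest and the lowest value, and all MEKi hearts lay above the vehicle median of 1272 FPKM. Levels were 1314 ± 258 and 1416 ± 141 FPKM (SD, n = 5), and the log2 fold change was 0.12 (SE 0.14, adjusted p = 0.874, limma). Pln (ENSMUSG00000038583, chromosome 10, 53337667 to 53345987, plus strand) was at 712, 655, 617, 539 and 584 FPKM in vehicle hearts and 674, 650.3, 736, 712 and 634 FPKM in MEKi hearts. All MEKi hearts exceeded the vehicle median of 617 FPKM, and vehicle heart 4 was lowest. For Pln the log2 fold change was 0.14 (SE 0.099, adjusted p = 0.779, limma), a group difference of 621 ± 66.6 against 681 ± 42.2 FPKM (SD, n = 5). Without vehicle hearts 4 and 5 it was −0.00099 for Atp2a2 and 0.043 for Pln.

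Removal of calcium from the cell was represented by Slc8a1, the sodium-calcium exchanger (ENSMUSG00000054640, chromosome 17, 81388691 to 81649607, minus strand in the deposited model). It was at 4.68, 5.58, 15.7, 7.20 and 5.20 FPKM in vehicle hearts and 11.5, 6.22, 5.31, 6.37 and 24.4 FPKM in MEKi hearts. Most hearts lay between 4.68 and 7.20 FPKM, and vehicle heart 3, MEKi heart 1 and MEKi heart 5 stood above them. The spread was 5.21-fold from the lowest to the highest heart, wider than for the other 9 genes, whose spread ran from 1.30-fold for Trdn to 1.84-fold for Ryr2. It rested on 222 to 1124 fragments per heart, and the residual SD of Slc8a1 was at the 95.2nd percentile of all genes tested. By contrast Pln and Trdn were at the 7.86th and 9.80th percentiles. Between groups the log2 fold change of Slc8a1 was 0.38 (SE 0.43, adjusted p = 0.872, limma), but it was 0.026 without MEKi heart 5 and 0.68 without vehicle heart 3. In MEKi heart 5 the endothelial markers summed to 204 FPKM, the lowest of the 10 hearts, and the cardiomyocyte markers to 18676 FPKM, also the lowest. Their part in the Slc8a1 value was not tested.

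Control by phosphorylation was represented by Camk2d, a calcium- and calmodulin-dependent kinase that acts on the ryanodine receptor and phospholamban (ENSMUSG00000053819, chromosome 3, 126596302 to 126846326, plus strand). It was at 3.75, 3.87, 5.22, 4.17 and 3.76 FPKM in vehicle hearts and 4.60, 4.25, 4.14, 3.69 and 4.64 FPKM in MEKi hearts. Vehicle heart 3 was highest, as it was for Ryr2, Atp2a2 and Casq2. The log2 fold change was 0.044 (SE 0.11, adjusted p = 0.956, limma).

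**Figure D2:**
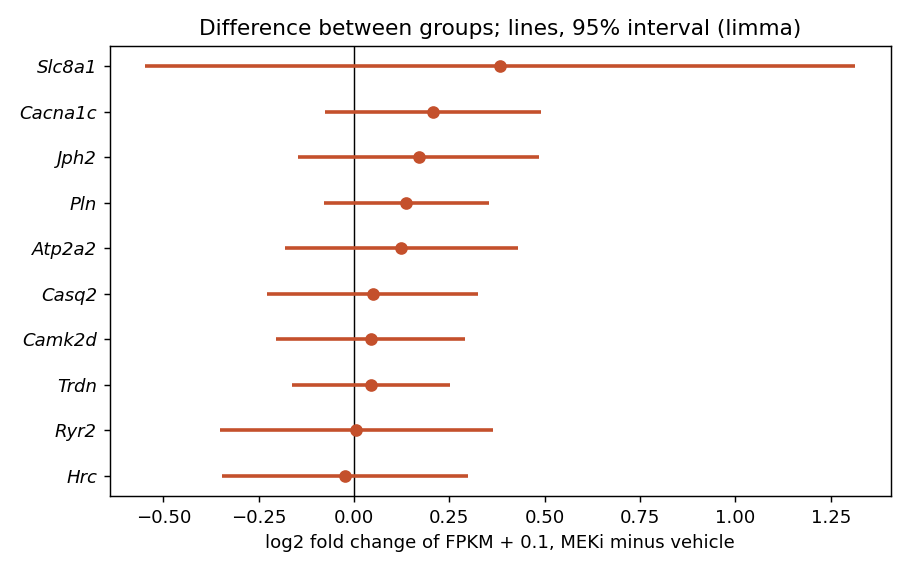
Log2 fold change of FPKM + 0.1 between MEKi and vehicle hearts (5 each) for the 10 genes, with points for the limma estimate and lines for its 95% interval. All 10 intervals cross 0, and that of Slc8a1 is the widest, from −0.55 to 1.31.

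Read as a group, 9 of the 10 estimates were above 0 and 1, that of Hrc, was below it. The median log2 fold change was 0.087, against 0.011 over all genes tested, of which 52.1% were above 0. Marker lists differed in sign, with 0 genes called. Estimates were below 0 for 7 of 7 endothelial, 8 of 8 macrophage, 6 of 6 atrial and 5 of 5 red blood cell genes. Smooth muscle and pericyte markers had 1 above 0 and 6 below, and fibroblast markers 3 above and 5 below. Cardiomyocyte markers were split 5 and 5, and lymphocyte and skeletal muscle markers 1 and 1. All 4 tested adipocyte markers and all 3 of Schwann cells and neurons were above 0. Summed endothelial markers ran from 212 to 358 FPKM in vehicle hearts and from 204 to 292 FPKM in MEKi hearts, and macrophage markers from 214 to 386 FPKM and from 188 to 232 FPKM. Their part in the signs of the 10 genes was not tested. The number above 0 depended on the hearts and on the scaling. It was 6 without vehicle hearts 4 and 5, with a median of 0.013, 7 under quantile normalization, and 10 on a TPM scale, where the median of all genes also moved to 0.088 and that of the 10 genes to 0.165. The spread between hearts was smaller with MEKi for 7 of the 10 genes, a share close to the 68.1% of all genes tested for which this held.

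Ratios within a heart do not depend on its library size, and 5 of them were compared to ask whether the balance between partner transcripts shifted (two-sided exact permutation test of the group labels, where 0.00794 is the smallest possible p). The ratio of inhibitor to pump, Pln to Atp2a2, ran from 0.359 to 0.585 over all hearts and had the same mean in both groups, 0.486 ± 0.0971 with vehicle and 0.486 ± 0.0668 with MEKi (SD, n = 5, exact p = 0.929). Both extremes were vehicle hearts, 3 and 1. Casq2 to Ryr2, the store buffer against the release channel, was 13.2 ± 2.01 and 13.6 ± 2.15 (exact p = 0.754). Trdn to Casq2 was 0.137 ± 0.0306 and 0.135 ± 0.0195 (exact p = 0.960). Slc8a1 to Atp2a2, extrusion against uptake, was 0.00558 ± 0.00211 and 0.00726 ± 0.00462 (exact p = 0.603), and its difference changed sign without MEKi heart 5 (log2 difference −0.048).

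Cacna1c to Ryr2, the entry channel against the release channel, was the ratio with the lowest p. It was at 0.251, 0.228, 0.224, 0.215 and 0.276 in vehicle hearts and 0.272, 0.279, 0.295, 0.330 and 0.210 in MEKi hearts. In 4 of 5 MEKi hearts it was above the vehicle median, and MEKi heart 5 had the lowest ratio of all 10 hearts. Means were 0.239 ± 0.0246 and 0.277 ± 0.0438 (SD, n = 5, exact p = 0.143). Without MEKi heart 5 the exact p was 0.0238, with an adjusted p of 0.119. The adjusted p over the 5 ratios was 0.714 for Cacna1c to Ryr2 and 0.960 for the rest.

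Part of the variation between hearts was shared between genes (the map of deviations by heart). Ryr2, Atp2a2, Casq2, Slc8a1, Jph2 and Camk2d were all above their means in vehicle heart 3, MEKi heart 1 and MEKi heart 5. All were below in vehicle heart 5 and MEKi heart 3. In MEKi heart 3, Casq2 at −0.041 and Camk2d at −0.015 (log2) lay close to their means. These genes were grouped after their values were seen, and they are those of the correlated pairs below. Their common direction is therefore no separate evidence of shared variation. Vehicle heart 3 held the highest value for 4 of the 10 genes and vehicle heart 5 the lowest for 4. Vehicle heart 3 also had the largest mitochondrial share, 35.0%, and vehicle heart 5 the most haemoglobin, with macrophage markers at 386 FPKM and fibroblast markers at 262 FPKM, the highest of the 10 hearts. Their part in the shared variation was not tested.

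**Figure D3:**
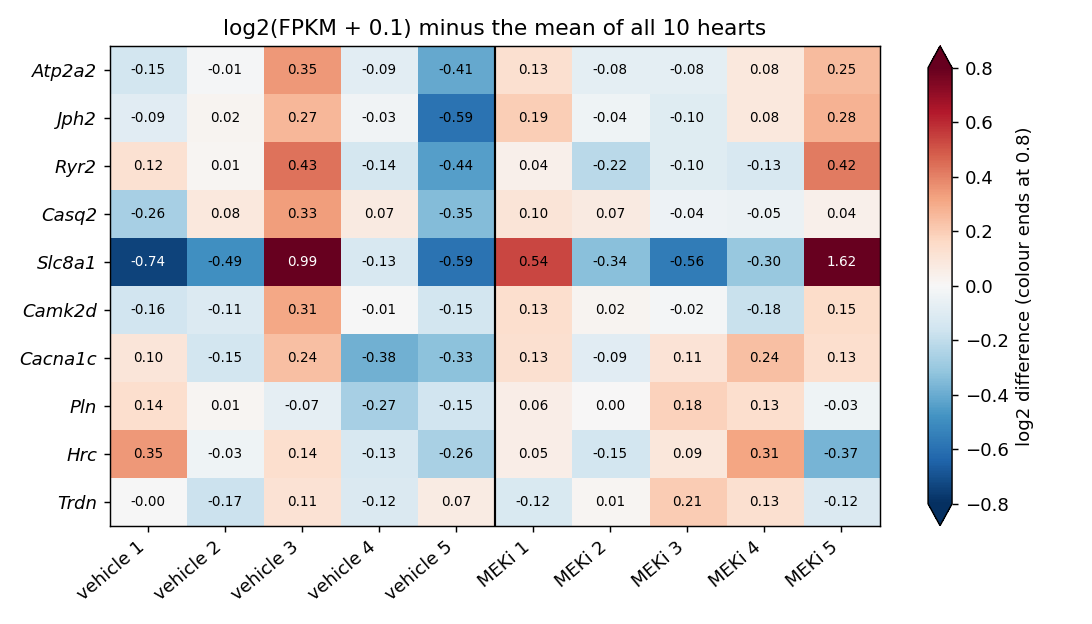
Difference of log2(FPKM + 0.1) from the mean of all 10 hearts for each gene (rows) and heart (columns), red above and blue below the mean, with colours ending at ±0.8 and a line between vehicle and MEKi hearts. The upper 6 genes, grouped after their values were seen, are above their means together in vehicle heart 3, MEKi heart 1 and MEKi heart 5. They are below in vehicle heart 5. Pln, Hrc and Trdn are below their means in MEKi heart 5, and Hrc goes with the 6 genes in the other hearts named.

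Over the 10 hearts the 45 pairs of genes had a median Pearson's r of 0.42, with 33 pairs above 0 and a range from −0.37 to 0.96. All hearts share 1 normalization, and the r values rose when the mitochondrial genes were left out of it, to 44 pairs above 0 with a median of 0.59. Subtracting the group means left 32 pairs above 0. By a permutation test with adjustment over the 45 pairs, 8 pairs had an adjusted p under 0.05 for Pearson's r and 2 for Spearman's rho. These were Atp2a2 with Ryr2, Casq2, Slc8a1 and Jph2, Jph2 with Ryr2 and Casq2, and Camk2d with Casq2 and Slc8a1. By rank they were Jph2 with Atp2a2 and Slc8a1. The share of such pairs over all genes was not computed, so the counts do not set the 10 genes apart. Without the 2 hearts farthest from the median of the first-named gene, r fell from 0.82 to 0.42 for Atp2a2 with Casq2, from 0.80 to 0.54 for Casq2 with Jph2 and from 0.85 to 0.65 for Ryr2 with Atp2a2, so these relations rested in part on those hearts. For Ryr2 with Jph2, Atp2a2 with Slc8a1, Casq2 with Camk2d and Slc8a1 with Camk2d it was 0.74, 0.89, 0.79 and 0.78, and for Slc8a1 with Jph2 0.58.

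Atp2a2 and Jph2, the pump and the junctional scaffold, were the pair that passed by both measures. Their r was 0.956 (permutation p = 1e-05, the smallest that 100000 permutations can give, adjusted p = 0.00045) and their rho 0.903 (permutation p = 0.00077, adjusted p = 0.0187). Without vehicle hearts 3 and 5, the hearts farthest from the Atp2a2 median, r was 0.975, and on a TPM scale it was 0.973. The relation of Ryr2 with Slc8a1 did not pass. Its r of 0.766 (rho 0.455, permutation p = 0.0102 and 0.191, adjusted p = 0.0510 and 0.452) fell to 0.19 without vehicle heart 3 and MEKi heart 5 and so rested on those hearts.

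Pln stood apart from its target. Its r with Atp2a2 was 0.14 (rho 0.055, permutation p = 0.708 and 0.891, adjusted p = 0.803 and 0.932), and without vehicle hearts 3 and 5 it was −0.020. On a scale without the mitochondrial genes the r of Pln with Atp2a2 was 0.52, so this value depends on the scaling. The highest r of Pln among the 10 genes was with Cacna1c, 0.71 (rho 0.41, permutation p = 0.0190 and 0.245, adjusted p = 0.0777 and 0.485), followed by Hrc at 0.63 (rho 0.64, permutation p = 0.0513 and 0.0536, adjusted p = 0.128 and 0.197). Without the 2 farthest hearts, vehicle 4 and MEKi 3, these were 0.54 and 0.74. Ryr2 had an r of 0.13 with Pln and 0.11 with Hrc over the 10 hearts. Without vehicle heart 3 and MEKi heart 5 these were 0.53 and 0.70, so for Ryr2 the low values depended on those hearts. For Atp2a2 with Hrc, r went from 0.125 to −0.43 without vehicle hearts 3 and 5.

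**Figure D4:**
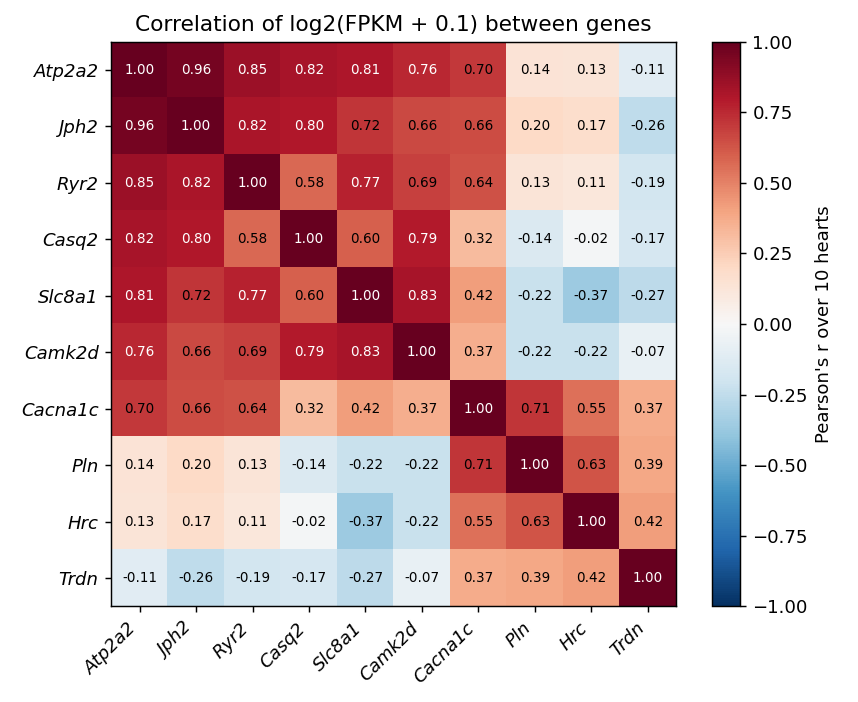
Pearson's r between the 10 genes over 10 hearts on log2(FPKM + 0.1), red for positive and blue for negative values. The highest value is that of Atp2a2 with Jph2, 0.96, and Trdn has values below 0 with 6 of the genes.

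The genes outside the 10 whose pattern over the 10 hearts was most like each of them were sought among the 10704 genes that averaged 1 FPKM or more, by Pearson's r on log2(FPKM + 0.1). The 3 closest had r from 0.88 to 0.98, and the highest of so many coefficients over 10 hearts is high by selection. For the pump gene Atp2a2 they were Kctd9 (r = 0.977), Tm9sf2 (0.974) and Kif13a (0.966). For Ryr2 they were Plxna1 (0.972), Hspd1 (0.9703) and Sptb (0.9503). Jph2 was closest to Dctn4 (0.969), Extl3 (0.966) and Kcnj11 (0.963), Casq2 to Nhlrc1 (0.954), Slc8a1 to Fbxw11 (0.971) and Camk2d to Fv1 (0.952). Pln was closest to Kars (0.925), Apobec2 (0.912) and Txn2 (0.910), Hrc to Ldhb (0.943) and Spg7 (0.933), and Cacna1c to Acadl (0.941).

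For most families the member measured here supplied nearly all of the transcript. Ryr2 made up 99.8% of the summed FPKM of the 3 ryanodine receptor genes (mean over 10 hearts), Atp2a2 99.6% of the SERCA genes, Casq2 99.2% of the calsequestrins and Cacna1c 98.7% of Cacna1c and Cacna1d. Slc8a1 made up 98.0% of the exchangers and Jph2 97.3% of the junctophilins. The skeletal muscle forms Ryr1 and Atp2a1 had at most 7 and 10 fragments in a heart. CaMKII was the exception. Camk2g, at 5.16 ± 0.791 FPKM (SD, n = 10), had 35.0% of the CaMKII sum, Camk2d 28.6%, Camk2a 28.2% and Camk2b 8.19%. In fragments the order was different, with 1231 to 1773 per heart for Camk2d and 322 to 642 for Camk2g, because the Camk2d model is so long.

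The small regulators of the pump varied far more than Pln. Sln was at 0.406, 5.58, 0, 112 and 73.0 FPKM in vehicle hearts and 0, 77.2, 0.672, 0.0848 and 0.386 FPKM in MEKi hearts. The 3 high hearts, vehicle 4 and 5 and MEKi 2, are those with the highest sums of the 7 atrial markers, among which Sln is one. Its log2 fold change was −2.42 (SE 2.15, adjusted p = 0.820, limma), with both groups spanning nearly the whole range. Strit1 (dwarf open reading frame, listed as Gm34302), whose peptide counters phospholamban, was between 1.31 and 14.6 FPKM, both in MEKi hearts (log2 fold change −0.19, SE 0.58, adjusted p = 0.959, limma). Strit1 rested on only 5 to 61 fragments per heart, against 20692 to 35131 for Pln, so counting error adds to its spread.

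Beyond the 10 genes, 97 further genes of calcium cycling were grouped by role, and 81 of them passed the expression filter. Of these 81, 0 had an adjusted p under 0.05 and 6, or 7.41%, an unadjusted one, against 7.62% of all genes tested (limma), 5 higher and 1 lower with MEKi. Their median log2 fold change was 0.029, with 47 above and 34 below 0. Over the 7 lists the medians ran from −0.021 for the 18 tested genes of IP3 receptors, store-operated entry and calcineurin to 0.085 for the 16 kinases and phosphatases. The 10 calcium-handling genes, with a median of 0.087, and the 8 L-type channel subunits and regulators, with 0.077, lay at the same end of a narrow range.

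Rrad, a small GTPase that restrains the L-type channel, had the smallest p of the 81 genes. It was at 176, 113, 77.5, 86.3 and 69.4 FPKM in vehicle hearts and 164, 171, 209, 195 and 167 FPKM in MEKi hearts. All MEKi hearts were above 4 of the 5 vehicle hearts, and vehicle heart 1 lay inside the MEKi range. Its log2 fold change was 0.87 (SE 0.22, limma adjusted p = 0.314). It was called when vehicle heart 1 was left out (log2 fold change 1.08, limma adjusted p = 0.0225) and under none of the other 22 settings, and the log2 fold change was 0.64 without vehicle hearts 4 and 5.

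Vdac1, a channel of the outer mitochondrial membrane, was the 1 gene of the 81 whose groups did not overlap, against 1.64% of all genes. It was at 301, 314, 304, 312 and 256 FPKM in vehicle hearts and 358, 342, 339.7, 356 and 360.0 FPKM in MEKi hearts, so that the groups were separated by a gap of a size similar to the MEKi range. Between groups the log2 fold change was 0.24 (SE 0.085, limma adjusted p = 0.521), and it was 0.16 under quantile normalization (limma adjusted p = 0.764). The other genes with an unadjusted p under 0.05 were Fkbp1b, an immunophilin bound to the ryanodine receptor (1.30 ± 0.572 and 1.94 ± 0.438 FPKM), Pde3a, a phosphodiesterase (3.93 ± 0.660 and 4.95 ± 0.771 FPKM), Ppp1ca, a protein phosphatase subunit (179 ± 16.8 and 207 ± 19.3 FPKM), and Camk2b, the CaMKII form with the lowest level (1.39 ± 0.270 and 1.02 ± 0.203 FPKM, SD, n = 5). Their adjusted p-values were between 0.609 and 0.652 (limma). Other genes with the smallest p of each list had adjusted p-values from 0.666 to 0.938 (limma). They were Cacnb2 (log2 fold change 0.26) and Ahnak (−0.10) of the L-type list, Bin1 (−0.35) of the junction, Tmx1 (0.19) and Hax1 (0.20) among the pump regulators, Atp2b1 (−0.17), Fxyd1 (0.11) and Atp1b1 (0.098) of extrusion, Mcub (−0.44) and Letm1 (−0.14) of the mitochondrion, and Ppp3r1 (0.16), Itpr1 (0.23) and Trpc1 (0.36).

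**Figure D5:**
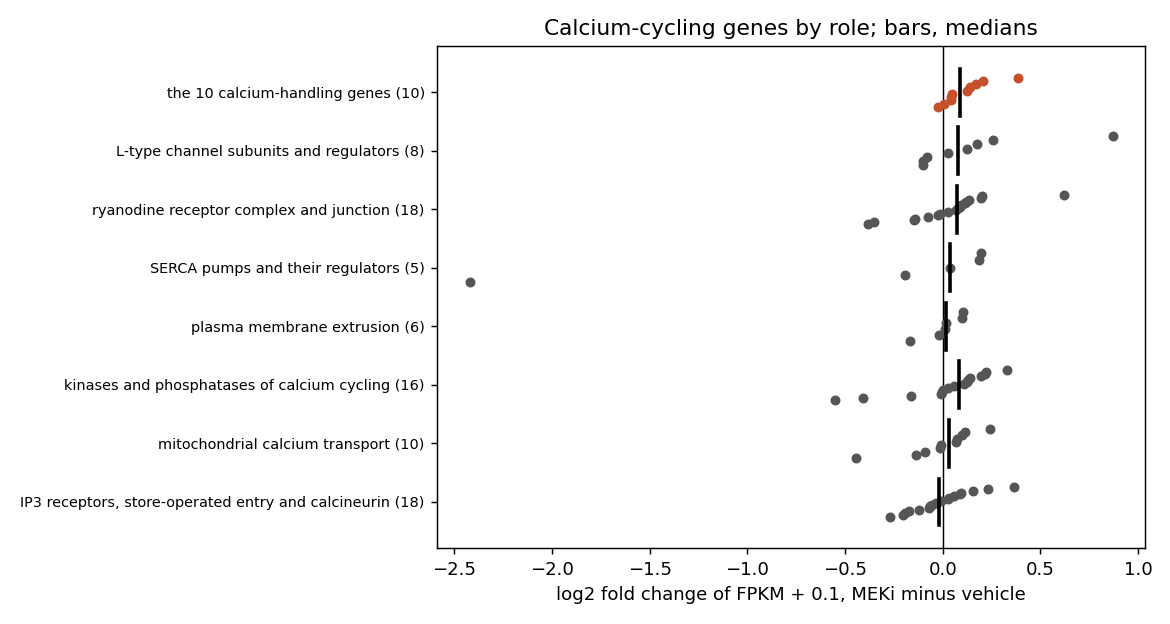
Log2 fold change of FPKM + 0.1 between MEKi and vehicle hearts for the 10 calcium-handling genes (orange) and for the tested genes of 7 further lists (grey), 1 point a gene, with bars for the medians and the number of genes in brackets. Medians lie close to 0 in every list, and the farthest points are Sln at −2.42 and Rrad at 0.87.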

How the data were processed

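RNA from the hearts of 5 vehicle and 5 MEKi mice was sequenced by the authors after poly(A) selection. The authors deposited FPKM per gene and heart, with gene lengths and coordinates. The submitters' processing notes list fastp, STAR 2.5, HTSeq 0.6.1 and mm10, with no annotation release, and no source used here states how strand was counted or which test was applied. Groups and replicate numbers came from the labels, which give no batch. In each heart 100% of the products of FPKM and gene length were integers (tolerance 0.01) once divided by 1 step, which gave the fragments. Coordinates of 9 of the 10 genes, all but Slc8a1, equal those of GENCODE M21.

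Groups were compared on log2(FPKM + 0.1) in R 4.3.3 by limma 3.58.1 (eBayes with trend, two-sided, Benjamini-Hochberg adjustment over the 12602 genes averaging 0.5 FPKM or more, threshold 0.05). On this scale the fold changes of low genes are understated. Ratios, correlations (100000 permutations) and sequences were handled in Python 3.11.15 (scipy 1.17.1, numpy 2.4.6, pandas 2.3.3). Alternatives were pseudocounts of 1 and 0.01, other expression filters, a TPM scale, quantile normalization, no trend, array weights, a replicate block, voom on the fragments, scaling without mitochondrial genes and leaving out hearts. The 10 genes and all lists were chosen with earlier results of these data known, and permutation p-values were added to the correlations after their values were seen. Named from the lists were family relatives of the 10 genes, Sln, Strit1 and up to 3 genes of each list with the smallest p, and for each of the 10 genes the 3 others with the highest Pearson's r, of which some are printed and others are not reported here. The labels call the hearts biological replicates. Counts of fragments between hearts of a group differed by more than sampling noise (chi-square of 13.5 or more per degree of freedom).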

Additional observations from a re-analysis of the deposited data

Results flagged for a closer look

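In groups of 5 hearts, the highest or lowest value was compared with the rest by its gap over the range of the group (Dixon's 95% limit), for the 10 genes, the 5 ratios and the marker sums. Of 52 groups examined, 4 held such a value, and chance gives about 2.6 (1 in 20). Vehicle heart 3 stood apart for Slc8a1, at 15.7 FPKM against 4.68 to 7.20 FPKM in the other vehicle hearts. The same heart stood apart for Camk2d, at 5.22 FPKM against 3.75 to 4.17 FPKM. MEKi heart 5 had summed endothelial markers of 204 FPKM, below the 269 to 292 FPKM of the other MEKi hearts. MEKi heart 2 had summed adipocyte markers of 102 FPKM, above the 6.27 to 16.1 FPKM of the rest.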

How the results depend on the processing

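None of the 10 genes was called under any of 23 alternatives, and their lowest adjusted p was 0.448 (Cacna1c without vehicle replicate 3, limma). Over all genes, calls numbered 10, including the X- and Y-linked genes named above. They numbered 2 with a mean of at least 5 FPKM, 18 with array weights and 4 with the replicate number as a block. Without the 3 hearts of most Sln (vehicle 4 and 5, MEKi 2) they numbered 5. Without the 2 hearts of most haemoglobin (vehicle 4 and 5) they also numbered 5. Both sets of hearts were chosen after seeing the data. Leaving out 1 heart gave 5 (without vehicle replicate 2) to 13 (without vehicle replicate 1) calls, and 0 to 1 among the wider calcium genes, the 1 being Rrad. Hearts of the same replicate number did not deviate together (r from −0.154 to −0.0209), so the numbers do not pair them, and the block changed no other call.

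Small differences changed sign, and the cause was not tested. Ryr2 was at −0.016 under quantile normalization, −0.0050 with array weights, −0.020 without mitochondrial genes, −0.13 without the hearts of most Sln and −0.19 without those of most haemoglobin, with −0.10 to 0.12 on leaving out 1 heart. Casq2 was at −0.038 under quantile normalization and at −0.039 and −0.027 without those 3 and 2 hearts, with −0.032 to 0.14 on leaving out 1. Atp2a2 was at −0.00099 without the hearts of most haemoglobin. Hrc was at 0.054 on a TPM scale and 0.051 with array weights, with −0.11 to 0.066 on leaving out 1 heart, and Trdn ranged from −0.0026 to 0.079. Ratios compared by mean rank reversed for Pln to Atp2a2 (−0.20) and Trdn to Casq2 (0.20). On leaving out 1 heart the log2 differences ran from −0.090 to 0.087 for Pln to Atp2a2, −0.048 to 0.14 for Casq2 to Ryr2, −0.070 to 0.097 for Trdn to Casq2, −0.048 to 0.46 for Slc8a1 to Atp2a2 and 0.14 to 0.30 for Cacna1c to Ryr2. Paired by replicate number, 5 pairs cannot give a p under 0.0625. Camk2d had no value under the filter at 5 FPKM. With 5 hearts a group, the interval of Slc8a1 ran from 0.684-fold to 2.49-fold, and changes inside it were not resolved.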
